A study of Mus musculus with 6 samples.

Results

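Complement is a protein cascade of the innate immune system that tags cells and debris for removal, and 9 of its genes were followed here in mouse gliomas grown in hosts with and without *Esm1*. The 9 were taken by symbol from a table of 16729 genes and had a row each. They were the subunit genes *C1qa*, *C1qb* and *C1qc*, the central components *C3* and *C4b*, the protease gene *Cfb*, the inhibitor gene *Serping1* and the receptor genes *C3ar1* and *C5ar1*. The rule used names only and no measured value.

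The tumors came from mG7080, a gliomasphere culture of mouse glioma cells, which was injected into the brains of female C57BL/6 hosts. WT hosts carried intact *Esm1*, which encodes the secreted proteoglycan Endocan, and KO hosts were *Esm1* knockouts. By design only the host differed, since the same injected culture, not itself deleted for *Esm1*, was used in both groups. The mix of tumor and normal brain RNA also differed between libraries, as the marker lists below show. The sources used here give differing ages for the mice. There were 3 bulk RNA-seq libraries per group, called WT 1 to WT 3 and KO 1 to KO 3, made from frozen tumors, so that each holds RNA of tumor cells and host cells mixed. In such bulk samples fewer cells of a type and less RNA per cell cannot be told apart. Total counts ran from 17632070 to 22241832 per library.

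*Esm1* itself was measured first. It had 25, 21 and 82 reads in WT 1, WT 2 and WT 3, and 1, 24 and 4 reads in KO 1, KO 2 and KO 3. The library labelled KO 2 thus held as many *Esm1* reads as the lower WT libraries, which puts its label in doubt. The injected cells were not deleted for *Esm1*, so any reads of theirs cannot be told apart from those of the host. Whether the label of KO 2 is wrong was not tested. Fitted over all 6 libraries, *Esm1* had a log2 fold change (KO minus WT) of -2.20 ± 1.006 (SE; adjusted p = 0.192, edgeR). Without KO 2 it was -3.89 ± 0.98, which is no test of *Esm1*, since KO 2 was left out for its *Esm1* reads. The 9 genes are therefore given with KO 2 and without it. Calls of other genes and of the marker lists are given without KO 2 unless stated. The libraries of a group are described as separate mice, and p-values measure the spread between these libraries.

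In the classical pathway C1q, a complex of 3 different chains, binds antibody or surface patterns and starts the cleavage of C4 and C2. The products cleave C3, the hub on which the classical, lectin and alternative routes meet, and Cfb supplies the protease of the alternative route. C1 inhibitor, the product of *Serping1*, blocks the first proteases, and the small fragments C3a and C5a act on cells through the receptors C3ar1 and C5ar1. In brain, C1q is known as a product of microglia and other macrophages, and *C4b* and *Serping1* are also made by astrocytes.

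The promoters of the first genes of the cascade are shown because the 3 C1q genes lie side by side on chromosome 4 and *C3* had the widest range among libraries of all 9. In the GRCm38 annotation *C1qb* spans chr4:136880129-136886187, *C1qc* chr4:136889804-136893065 and *C1qa* chr4:136895917-136898803, all on the minus strand. *C3* spans chr17:57203970-57228136 on the minus strand. RefSeq promoters of 300 bases (250 before and 50 after the start, build GRCm38.p6) were matched for 5 of the 9 genes, *C1qb*, *C1qc*, *C3*, *C3ar1* and *C5ar1*. The windows shown are chr4:136886151-136886450 for *C1qb*, chr4:136892865-136893164 for *C1qc* and chr17:57228087-57228386 for *C3*, each printed 5′ to 3′ along the gene, with the match of a motif in capitals.
C1qb: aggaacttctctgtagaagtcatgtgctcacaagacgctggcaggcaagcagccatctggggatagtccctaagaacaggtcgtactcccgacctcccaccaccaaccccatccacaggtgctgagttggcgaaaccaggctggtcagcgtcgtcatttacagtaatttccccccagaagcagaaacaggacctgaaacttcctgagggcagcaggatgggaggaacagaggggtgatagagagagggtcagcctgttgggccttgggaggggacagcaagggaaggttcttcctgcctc
C1qc: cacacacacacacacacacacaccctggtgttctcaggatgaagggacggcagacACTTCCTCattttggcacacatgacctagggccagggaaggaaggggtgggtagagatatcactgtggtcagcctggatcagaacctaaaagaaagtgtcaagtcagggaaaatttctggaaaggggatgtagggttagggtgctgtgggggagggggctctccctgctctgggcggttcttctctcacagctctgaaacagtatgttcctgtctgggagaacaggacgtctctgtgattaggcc
C3: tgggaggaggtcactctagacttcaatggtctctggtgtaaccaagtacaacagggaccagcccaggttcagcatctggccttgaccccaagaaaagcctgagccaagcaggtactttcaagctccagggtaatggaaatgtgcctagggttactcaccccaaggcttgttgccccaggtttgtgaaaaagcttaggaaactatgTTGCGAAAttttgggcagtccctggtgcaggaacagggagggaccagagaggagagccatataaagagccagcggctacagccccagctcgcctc

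Known binding letters of 5 factors or elements were searched on both strands of these windows. They were GAGGAAGT for PU.1, the myeloid transcription factor, TTNNGCAA for C/EBP, GAAANNGAA for the interferon-stimulated response element, TTCNNNGAA for the gamma-activated site and GGANTTTCC for NF-kB. In *C1qc* the PU.1 letters lay on the opposite strand, and the match began 195 bases before the start site. They occurred in 3.20% of 32851 mouse promoters of the same length. In *C3* the C/EBP letters lay on the opposite strand from position -45, and 10.8% of all promoters held them. In *C5ar1* (not shown) the response element lay on the opposite strand from position -66, against 8.56% of all promoters. The windows of *C1qb* and *C3ar1* held none of the 5, of which the gamma-activated site occurred in 8.30% of all promoters and the NF-kB letters in 1.25%.

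Over all 6 libraries none of the 9 genes passed the test, and without KO 2 all 9 were lower in the KO libraries. Counts, shown here as CPM (counts scaled to a common TMM-adjusted library size), were fitted with edgeR's quasi-likelihood test over all genes, and a gene was called at a Benjamini-Hochberg adjusted p under 0.05. Over the 6 libraries 0 of 9 were called, 0 of 9 had an unadjusted p under 0.05, and DESeq2, edgeR's exact test and limma-voom also called 0. Of 16166 genes tested, the share called lower was 0.0% and the share called higher was 0.0%, while 11.9% were lower at an unadjusted p under 0.05. All 9 fitted differences were negative, with a median log2 fold change of -0.64 against -0.02 over all genes.

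Without KO 2 the count was 9 of 9 lower and 0 higher, where 28.3% of all 16279 genes tested were called lower and 24.5% higher. Of those calls 53.6% were lower, and 70.4% with plain library size scaling, which left the 9 of 9 as they were. The median log2 fold change of the 9 was -2.01, again against -0.02 over all genes. Of the 9, 5 fell by more than 4-fold (*C3*, *C4b*, *Cfb*, *Serping1* and *C3ar1*), against 7.48% of all genes. *Serping1* passed that limit only narrowly. In the 4 libraries WT 1, WT 2, KO 1 and KO 3 the count was also 9 of 9, with 13.9% of all genes called lower. With any library other than KO 2 left out of the 6, 0 of 9 were called. With KO 3 left out as well as KO 2, only KO 1 stands against the 3 WT libraries, the spread comes from WT alone, and KO 1 is assumed to vary like them. In that fit 0 of 9 were called, with adjusted p from 0.0686 to 0.0865 (edgeR), while all 9 had an unadjusted p under 0.05 and log2 fold changes from -2.94 to -1.46.

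The values by library show the split. KO 1 and KO 3 both lay below all 3 WT libraries for 9 of 9 genes, as they did for 40.3% of all genes tested without KO 2. KO 2 lay above all 3 WT libraries for 5 genes, *C1qa*, *C1qb*, *C1qc*, *C3* and *C4b*, against 22.4% of all genes, and within the WT range for the other 4. No gene of the 9 therefore had all 3 KO libraries below all 3 WT libraries, against 14.8% of all genes. KO 3 was the lower of KO 1 and KO 3 for 8 of 9, the exception being *Serping1*.

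**Figure D1:**
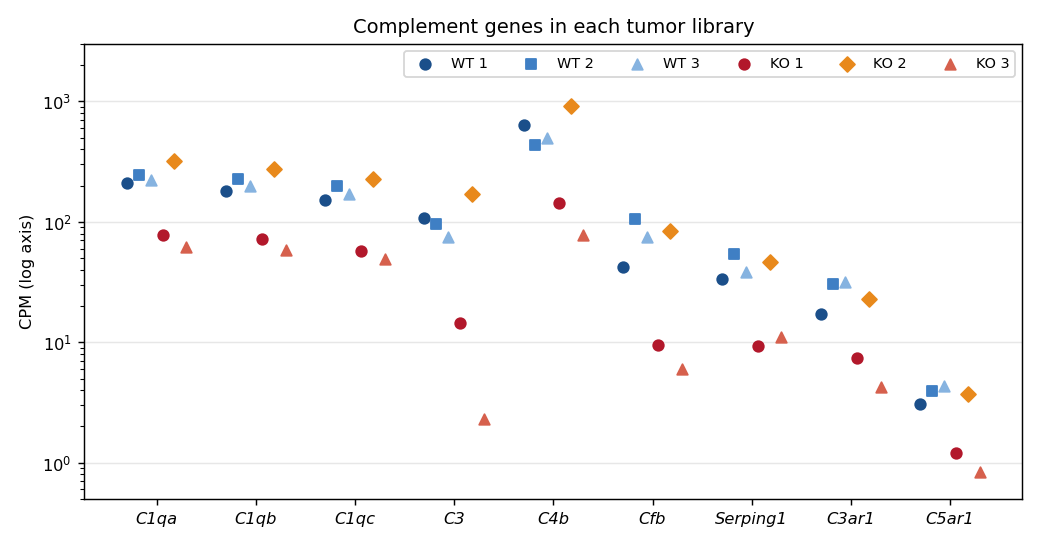
CPM of each of the 9 complement genes (log axis) in each of the 6 tumor libraries, 1 point per library. KO 1 and KO 3 sit below the 3 WT libraries for every gene, whereas KO 2 sits above them for 5 genes and among them for 4.

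*C1qa* encodes the A chain of C1q. It stood at 208 CPM in WT 1, 245 in WT 2 and 221 in WT 3, and at 78.1 in KO 1, 323 in KO 2 and 61.8 in KO 3. The WT libraries lay close together, KO 1 and KO 3 were both below them, and KO 2 was the highest of the 6. Fitted with KO 2, the difference on the log2 scale was -0.54 ± 0.64 (SE, n = 3 against 3; adjusted p = 0.533, edgeR), and fitted without it -1.66 ± 0.17 (adjusted p = 0.00798, edgeR).

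*C1qb*, for the B chain, had 179.6, 225 and 197 CPM in the WT libraries and 71.7, 276 and 58.3 CPM in KO 1, KO 2 and KO 3. *C1qc*, for the C chain, had 152, 199 and 169 CPM in the WT libraries and 57.4, 228 and 48.9 CPM in the KO libraries. Both followed the order of *C1qa*, from KO 3 as the lowest to KO 2 as the highest. Without KO 2 the log2 fold changes were -1.60 ± 0.17 for *C1qb* and -1.69 ± 0.17 for *C1qc* (both adjusted p = 0.00798, edgeR). Over all 6 they were -0.57 ± 0.61 (adjusted p = 0.493) and -0.64 ± 0.61 (adjusted p = 0.447). The standard errors without KO 2 were the smallest of the 9 genes.

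The balance of the 3 chains was a separate measure, since a share within a library does not depend on scaling. Of the reads on the 3 genes, *C1qa* took 38.6%, 36.6% and 37.7% in the WT libraries and 37.7%, 39.1% and 36.6% in the KO libraries. *C1qb* took 33.3%, 33.6% and 33.5% in WT and 34.6%, 33.3% and 34.5% in KO. *C1qc* took 28.1%, 29.8% and 28.8% in WT and 27.7%, 27.6% and 28.9% in KO. With KO 2 the shares of all 3 genes overlapped between the groups, while the sum of the 3 genes ran from 169 CPM in KO 3 to 826 CPM in KO 2. The overlap of *C1qb* came from KO 2 alone, since KO 1 and KO 3 lay above all 3 WT libraries. The KO mean minus the WT mean was 0.156 percentage points for *C1qa* (p = 0.9), 0.673 points for *C1qb* (p = 0.3) and -0.829 points for *C1qc* (p = 0.3), by two-sided exact permutation tests whose smallest possible p with 3 against 3 is 0.1. Leaving out KO 2 gave differences of -0.498 points for *C1qa* (p = 0.6), 1.08 points for *C1qb* (p = 0.2) and -0.579 points for *C1qc* (p = 0.6), where the smallest possible exact p is 0.2. Without WT 2 the difference was -0.362 points for *C1qa* and -0.388 points for *C1qc*. The 95% binomial intervals of single libraries (counting error only) were up to 3.34 points wide for *C1qa*, in KO 3. For *C1qb* the intervals of KO 1 (33.0% to 36.2%) and KO 3 (32.9% to 36.2%) held the shares of all 3 WT libraries.

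**Figure D2:**
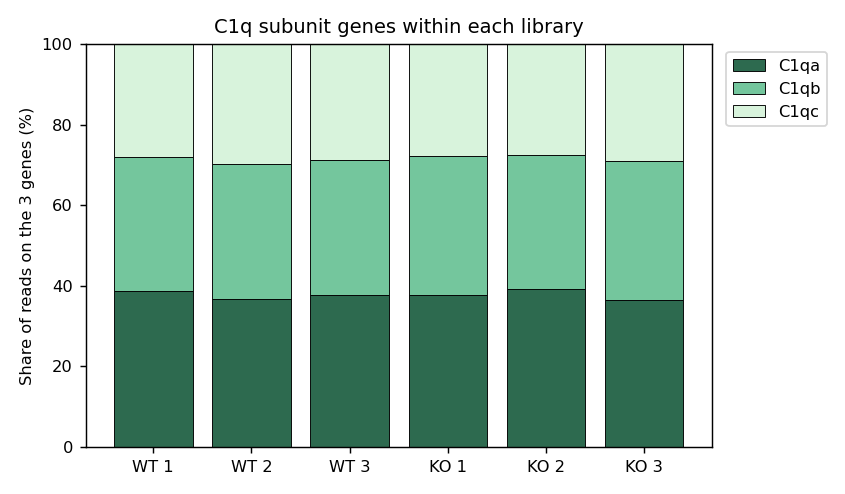
Share of the reads on *C1qa*, *C1qb* and *C1qc* that fell on each gene (%), 1 stacked bar per library. The *C1qa* share lies between 36.6% and 39.1% in all 6 libraries.

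*C3*, whose product is cleaved by every route of the cascade, had the widest range. It stood at 108, 95.95 and 74.6 CPM in WT 1, WT 2 and WT 3, and at 14.5 CPM in KO 1, 171 CPM in KO 2 and 2.28 CPM in KO 3. The value of KO 3 rests on 44 reads (95% exact Poisson interval 1.66 to 3.07 CPM, counting error only) and that of KO 2 on 3891. The highest library was 75.1 times the lowest, and KO 1 was 6.34 times KO 3, so the pair of low libraries also differed from each other by more than the WT libraries did (1.45 times). Its log2 fold change was -0.56 ± 1.31 (adjusted p = 0.753, edgeR) over all 6 and -3.46 ± 0.75 (adjusted p = 0.0165, edgeR) without KO 2. With KO 3 left out of the 6 in place of KO 2 it was 0.00347. A microRNA gene, *Mir6978*, lies within *C3* on the same strand.

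*C4b* encodes the C4 that the classical and lectin routes cleave. It had 642, 435 and 494 CPM in the WT libraries, 144 CPM in KO 1, 924 CPM in KO 2 and 78.1 CPM in KO 3. KO 2, with 20963 reads, was 1.76 times the WT mean. Without KO 2 *C4b* was lower, with a log2 fold change of -2.22 ± 0.36 (adjusted p = 0.00959, edgeR), and over all 6 the value was -0.46 ± 0.90 (adjusted p = 0.71, edgeR). With KO 3 left out of the 6 it was 0.0282.

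*C4b* (chr17:34728380-34743882, minus strand) has a near-identical neighbor, *C4a* (chr17:34809092-34823464), between which reads can be split, so the values of both are uncertain. *C4a* had 2.49, 2.11 and 2.08 CPM in the WT libraries and 3.46, 3.04 and 2.54 CPM in the KO libraries. It did not share the low values of *C4b* in KO 1 and KO 3 (log2 fold change 0.44, adjusted p = 0.24, edgeR, without KO 2). Reads on *C4b* were 257, 206 and 237 times those on *C4a* in the WT libraries, 41.5, 304 and 30.7 times in KO 1, KO 2 and KO 3.

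The ratio of *C4b* to *C3* differed between libraries more than the C1q shares did. *C4b* CPM was 5.95, 4.53 and 6.62 times *C3* CPM in the WT libraries and 5.39 times in KO 2, but 9.94 times in KO 1 and 34.2 times in KO 3. *C3* was thus lower relative to *C4b* in KO 1 and KO 3 than in any other library. Against *Gfap*, the intermediate filament gene of astrocytes (taken from the astrocyte markers after its values were seen), the *C4b* ratio was 0.594, 0.372 and 0.440 in WT, 0.584 in KO 1, 0.350 in KO 3 and 1.13 in KO 2. KO 1 thus lay within the WT range of that ratio, KO 3 just below it and KO 2 above it. *Gfap* is not typical of the astrocyte markers, of which 5 of 10 were called higher without KO 2 and 2, *Gfap* among them, lower.

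*Cfb*, for complement factor B, lies at chr17:34856374-34862518 on the minus strand, and its span overlaps *Gm20547* and *Mir6972* on the same strand, so reads may be shared with them. It had 42.2, 105 and 75.2 CPM in the WT libraries against 9.48, 84.2 and 6.02 CPM in KO 1, KO 2 and KO 3. The WT libraries spanned 2.49 times, the widest WT range of the 9 genes, and KO 2 lay inside it. The lowest WT library was still 4.45 times the higher of KO 1 and KO 3. Without KO 2 *Cfb* was lower by a log2 fold change of -3.23 ± 0.45 (adjusted p = 0.00803, edgeR), against -1.15 ± 1.02 (adjusted p = 0.412, edgeR) over all 6.

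*Serping1* (chr2:84765387-84775444, minus strand) encodes the inhibitor of the C1 proteases. Its levels were 33.5, 54.0 and 38.2 CPM in WT and 9.25, 46.7 and 11.2 CPM in KO 1, KO 2 and KO 3. KO 2 lay among the WT libraries, and KO 1 rather than KO 3 was the lowest. Without KO 2 the inhibitor fell by 2.01 ± 0.25 on the log2 scale (adjusted p = 0.00798, edgeR), in the same direction as the components it restrains, and over all 6 the fitted difference was -0.90 ± 0.65 (adjusted p = 0.33, edgeR).

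The receptors had the fewest reads of the 9 in the WT libraries. *C3ar1* (chr6:122847138-122856161, minus strand), the C3a receptor, had 17.2, 30.3 and 31.7 CPM in WT and 7.44, 23.0 and 4.26 CPM in KO 1, KO 2 and KO 3. *C5ar1* (chr7:16246743-16259540, minus strand), the C5a receptor, had 3.06, 3.96 and 4.37 CPM in WT and 1.19, 3.75 and 0.831 CPM in KO. For both, KO 2 lay within the WT range and the other KO libraries below it. The 16 *C5ar1* reads of KO 3 allow 0.475 to 1.35 CPM (95% exact Poisson, counting error only), which stays under the lowest WT library. Without KO 2 the log2 fold changes were -2.15 ± 0.38 for *C3ar1* (adjusted p = 0.0109, edgeR) and -1.89 ± 0.34 for *C5ar1* (adjusted p = 0.0114, edgeR). Over all 6 libraries they were -1.19 ± 0.64 (adjusted p = 0.228) and -0.97 ± 0.59 (adjusted p = 0.268). With KO 3 as the only KO library, *C5ar1* had a larger difference of -2.16 but was not called (adjusted p = 0.0517, edgeR).

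**Figure D3:**
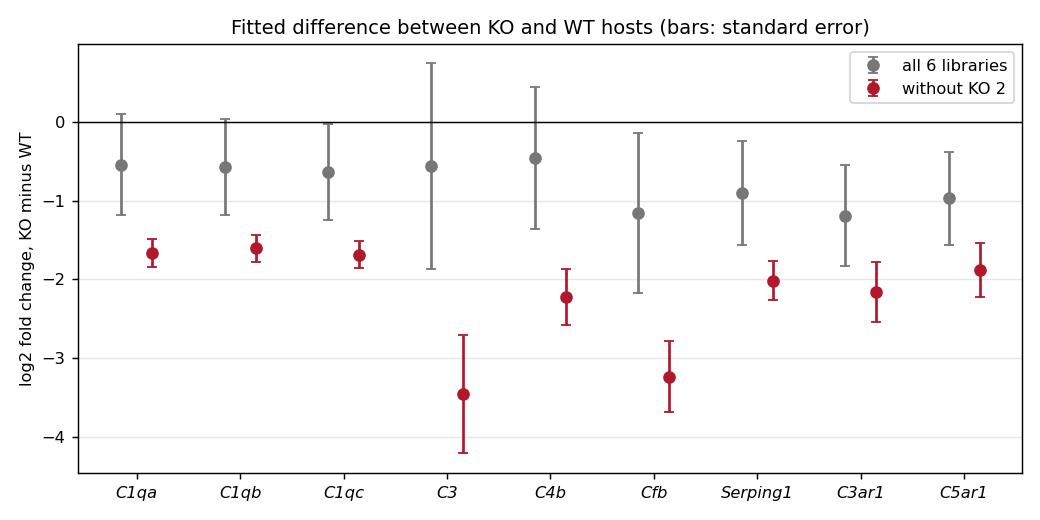
Fitted log2 fold change (KO minus WT) of each complement gene with its standard error, over all 6 libraries and without KO 2. Without KO 2 the values run from -3.46 for *C3* to -1.60 for *C1qb*, and with it from -1.19 for *C3ar1* to -0.46 for *C4b*.

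Levels of different genes were compared per length, in FPKM. In the WT libraries the order was *C1qa* at 220.0 ± 21.5 FPKM (SD, n = 3), *C1qb* at 199.9 ± 26.0 and *C1qc* at 174 ± 26.8, whose ranges overlapped from each to the next. *C4b* followed at 102 ± 19.0 and lay apart from both neighbors. *Cfb* at 28.7 ± 12.6, *Serping1* at 24.4 ± 6.62 and *C3* at 19.1 ± 3.28 overlapped from each to the next, and *C3ar1* at 6.52 ± 2.05 and *C5ar1* at 1.62 ± 0.307 lay apart. Of the 9, the C1q subunits were thus the most abundant per length in the WT libraries and the anaphylatoxin receptors the least.

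In KO 1 and KO 3 the 4 leading genes kept their order, with *C1qa* at a mean of 57.8 FPKM, *C1qb* at 54.7, *C1qc* at 45.0 and *C4b* at 18.5. *Serping1* at 4.98 FPKM came before *Cfb* at 2.53 and *C3* at 1.48, and the range of *C3* overlapped that of *C3ar1*, at 1.22. In KO 2 *C3* at 35.6 FPKM came before *Cfb* at 32.7 and *Serping1* at 27.4, with *C1qa* at 318 FPKM at the head. By means, and by the 1 library KO 2, the places of *C3*, *Cfb* and *Serping1* differed between these sets, and the other 6 kept theirs. The ranges of these 3 overlapped in WT and those of *C3* and *C3ar1* in KO 1 and KO 3, so these orders are not settled.

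Because C1q is a product of microglia, the genes were also set against the summed CPM of 12 microglia markers, as a description. That sum was 802, 700.3 and 683 CPM in the WT libraries against 681, 907 and 628 CPM in KO 1, KO 2 and KO 3, so KO 1 lay just under the lowest WT library, KO 3 below it and KO 2 above all 3. *C1qa* was 26.0%, 35.0% and 32.4% of the sum in WT, 35.6% in KO 2, and 11.5% and 9.84% in KO 1 and KO 3. *C1qa* was thus lower in KO 1 and KO 3 also relative to these markers, by 2.92 times between the means. *C3* was 13.5%, 13.7% and 10.9% of the sum in WT, 2.13% in KO 1, 18.9% in KO 2 and 0.364% in KO 3. The WT mean over the mean of KO 1 and KO 3 was lowest for *C1qb*, at 2.80 times, and highest for *C3*, at 10.2 times.

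The microglia markers did not move as 1 block. Without KO 2, 5 of 12 were called lower and 2 higher, against 28.3% and 24.5% of all genes. Among those named after their values were seen, *Tyrobp*, a signaling adaptor of myeloid cells, had 45.9, 61.6 and 53.3 CPM in WT and 18.1, 59.4 and 14.8 CPM in KO 1, KO 2 and KO 3 (log2 fold change -1.68, adjusted p = 0.00798, edgeR, without KO 2). *P2ry12*, a receptor of resting microglia, had 36.5, 17.0 and 19.1 CPM in WT and 54.4, 36.3 and 48.2 CPM in KO (log2 fold change 1.09, adjusted p = 0.0433). *Csf1r*, the receptor that macrophages and microglia need for survival, had 168, 139 and 141 CPM in WT and 146, 194 and 148 CPM in KO. *Tyrobp* was low in the same libraries as the C1q genes, whereas *P2ry12* was high there and *Csf1r* overlapped between the groups. Over all 6 the log2 fold changes of *Tyrobp* and *P2ry12* were -0.80 and 0.94 (adjusted p = 0.307 and 0.184, edgeR).

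Other lists moved with the same libraries, and their part in the complement values was not tested. Beside the counts of calls that follow, 28.3% of all genes were called lower without KO 2 and 24.5% higher. The 10 markers of infiltrating monocytes and macrophages, of which 6 were called lower without KO 2 and 0 higher, summed to 257 to 404 CPM in WT, 366 in KO 2, 69.6 in KO 1 and 51.4 in KO 3. The interferon gamma response genes (11 of 11 called lower) summed to 2998 to 4539 CPM in WT, 4392 in KO 2, 456 in KO 1 and 188 in KO 3. The type I interferon response genes (12 of 12 lower) summed to 1086 to 1676 CPM in WT, 1354 in KO 2, 198 in KO 1 and 127 in KO 3. All 3 lists thus had KO 1 and KO 3 lowest and KO 2 within the WT range. Reactive astrocyte and acute phase genes (9 of 10 lower) summed to 865 to 1454 CPM in WT, 746 in KO 2, 192 in KO 1 and 164 in KO 3. Glioma cell markers (7 of 8 lower) summed to 1291 to 1761 CPM in WT, 1568 in KO 2, 512 in KO 1 and 343 in KO 3.

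The summed markers of normal brain were higher in KO 1 and KO 3 than in the WT libraries. Neuron markers (9 of 10 called higher without KO 2, 0 lower) summed to 1746 to 5084 CPM in WT, 4339 in KO 2, 11582 in KO 1 and 14078 in KO 3. Astrocyte markers (2 of 10 lower, 5 higher) summed to 3436 to 4375 CPM in WT, 4745 in KO 2, 6849 in KO 1 and 6187 in KO 3. Of the myelinating oligodendrocyte markers 2 of 8 were called higher, a share near the 24.5% of all genes, so that count is no result about them. They summed to 1351 to 3312 CPM in WT, 3180 in KO 2, 7452 in KO 1 and 3849 in KO 3. KO 3 was thus not far above the highest WT library. KO 1 and KO 3 were thus the libraries with the most neuron and the least glioma marker RNA and the lowest complement values. Among the other 4 libraries WT 1 and KO 2 had the most neuron and the least glioma marker RNA, and the 9 genes did not share 1 order there. *C3* and *C4b* were highest in KO 2 and WT 1. *C1qa*, *C1qb*, *C1qc*, *Cfb*, *Serping1*, *C3ar1* and *C5ar1* were each lowest of those 4 in WT 1. Whether the share of tumor in the sampled tissue bears on the complement values was not tested.

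The remaining lists covered vessels, lymphocytes, neutrophils and liver. Endothelial markers (2 of 10 higher) summed to 174 to 216 CPM in WT and 171 to 236 in KO, and mural markers (1 of 8 lower, 2 higher) to 279 to 366 in WT and 184, 399 and 131 in KO 1, KO 2 and KO 3. T cell markers (6 of 7 lower, *Trac* not analysed here) summed to 32.8 to 35.7 CPM in WT, 27.6 in KO 1, 48.9 in KO 2 and 7.32 in KO 3. The 3 neutrophil markers analysed (0 called) summed to 17.7 to 25.1 CPM in WT and 13.5 to 24.1 in KO, and *Ly6g* was not analysed here. Of the liver markers only *Ttr*, also a product of choroid plexus, was analysed, and it stood at 350.2 CPM in WT 1 and at 0.793 to 6.30 CPM in the other 5 libraries.

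**Figure D4:**
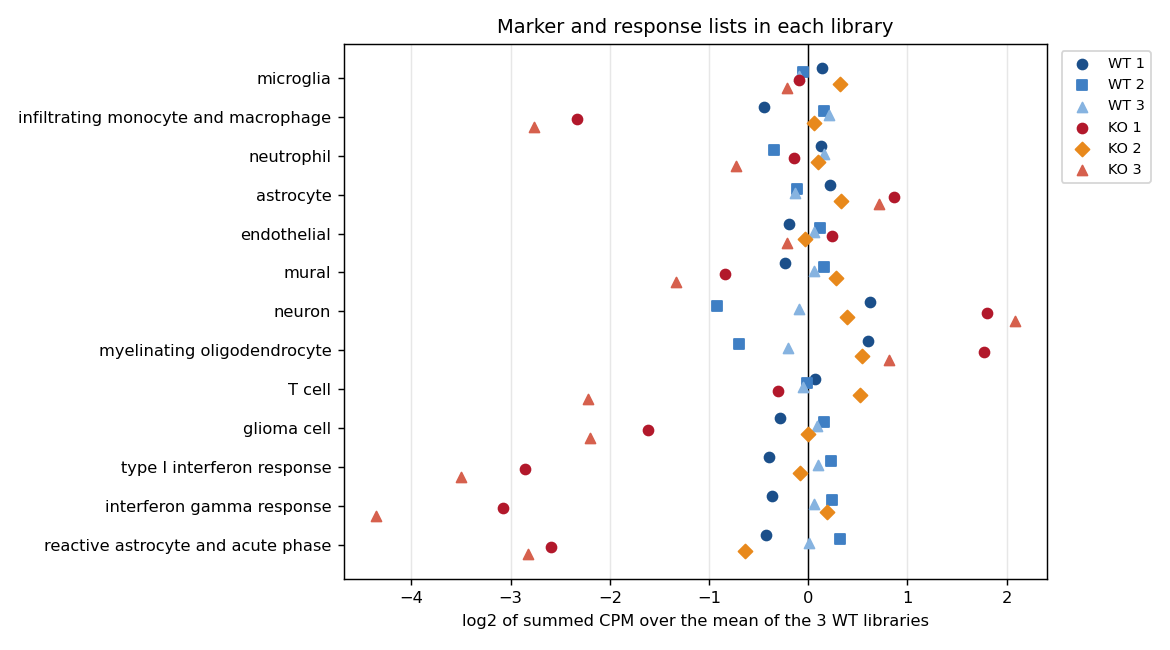
Log2 of the summed CPM of each marker or response list over the mean of the 3 WT libraries, 1 point per library. KO 1 and KO 3 lie to the left for the interferon, macrophage and glioma lists and to the right for the neuron list, while KO 2 lies near the WT libraries in each of these.

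Other genes of the system were listed by role, 50 in all. Of these 34 were analysed and 33 tested without KO 2, where 8 were called lower and 9 higher, with a median log2 fold change of 0.38. These shares are near those of all genes tested, 28.3% lower and 24.5% higher, so the counts are no result about the list. They depend on single libraries. With WT 3 left out as well, 5 were lower and 1 higher, with KO 1 left out 5 lower and 0 higher, and with KO 3 left out 0 in either direction, the last pair leaving 1 KO library. Over all 6 libraries edgeR called 0 of 33, 9 had an unadjusted p under 0.05, DESeq2 called 5, edgeR's exact test 1 and limma-voom 0. KO 2 lay above all 3 WT libraries for 13 of the 34, within their range for 17 and below for 4.

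In the classical and lectin group 3 of 8 were lower and 2 higher without KO 2, against 28.3% and 24.5% of all genes. The higher genes were *Colec12*, given below, and *Masp2*, named after its values were seen (log2 fold change 0.53, adjusted p = 0.0359, edgeR). *C1ra*, a protease bound to C1q, had 12.9, 14.9 and 17.0 CPM in WT and 5.28, 19.9 and 2.44 CPM in KO 1, KO 2 and KO 3. Its log2 fold change without KO 2 was -1.93 ± 0.37 (adjusted p = 0.0128, edgeR). *C1s1*, the protease that it activates, had 9.89, 9.67 and 15.04 CPM in WT and 3.803, 15.2 and 1.30 CPM in KO (log2 fold change -2.16, adjusted p = 0.0196). *C2*, the partner of C4 in the next protease, had 9.46, 14.5 and 11.9 CPM in WT and 3.01, 14.2 and 3.63 CPM in KO (log2 fold change -1.82, adjusted p = 0.00862). These 3 stand next to C1q in the route and shared its low libraries, KO 1 and KO 3, which lay below all WT libraries for 40.3% of all genes. Over all 6 libraries their log2 fold changes were -0.69, -0.77 and -0.78 (adjusted p = 0.487, 0.498 and 0.374, edgeR). *Colec12*, a collectin scavenger receptor, was higher, at 6.19 to 9.23 CPM in WT and 11.3 to 16.4 CPM in all 3 KO libraries (log2 fold change 0.94, adjusted p = 0.0377, edgeR, without KO 2). Both proteases have near-identical copies, *C1rb* and *C1s2*, so their values are uncertain.

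Apart from *Cfb*, the alternative route was represented by *Cfp* alone, and neither *Cfp* nor the 3 terminal genes tested were called. *Cfp*, for properdin, which stabilizes the alternative convertase, had 11.8, 16.1 and 14.9 CPM in WT and 14.6, 19.6 and 13.8 CPM in KO (log2 fold change 0.01, adjusted p = 0.971, edgeR, without KO 2). *Hc*, which encodes C5, stayed between 0.26 and 0.612 CPM in all 6 libraries. *C7*, a part of the membrane attack complex, had 0.423 to 0.794 CPM in WT and 1.19 to 2.60 CPM in KO, without overlap (log2 fold change 1.20, adjusted p = 0.0549). *Hc* and *C7* thus stayed under 3 CPM in all 6 libraries, where the depth gives few reads.

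Of 9 membrane regulators, which protect cells from complement, 6 were higher and 1 lower without KO 2, against 24.5% and 28.3% of all genes. The higher calls of the whole list, 9 in number, dropped to 1 without WT 3 and to 0 without KO 1. *Susd4* had 56.9, 32.4 and 40.6 CPM in WT and 89.0, 53.6 and 122 CPM in KO 1, KO 2 and KO 3 (log2 fold change 1.30, adjusted p = 0.0161, edgeR). *Csmd2* (log2 fold change 1.84, adjusted p = 0.0191) and *Csmd1* (1.79, adjusted p = 0.0213), neuronal membrane proteins with complement control domains, were high in the same libraries. *Cd59a*, which blocks the membrane attack complex and has the close copy *Cd59b*, had 8.38, 4.76 and 5.71 CPM in WT and 18.7, 6.74 and 11.4 CPM in KO (1.27, adjusted p = 0.0276). With KO 2 included these 4 had log2 fold changes of 0.96 to 1.47 (adjusted p = 0.184 to 0.19, edgeR). KO 2 lay within the WT range for all 4, and KO 1 and KO 3 are also the libraries with the most neuron marker RNA. *Cr1l*, a membrane regulator of the C3 convertase, was the gene of this group that was lower (log2 fold change -0.60, adjusted p = 0.0449). Among soluble regulators *Vtn*, for vitronectin, was higher, at 42.7 to 52.9 CPM in WT and 68.9 to 78.7 CPM in all 3 KO libraries (0.75, adjusted p = 0.0126). *Cfi*, the protease that inactivates C3b, had 0.471 to 2.33 CPM in WT and 0.208 to 0.705 CPM in KO (-2.45, adjusted p = 0.0508).

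Among the 8 other receptors 4 were lower and 0 higher without KO 2, against 28.3% and 24.5% of all genes. *Itgax*, the alpha chain of complement receptor 4, had 53.0, 92.2 and 64.1 CPM in WT and 5.39, 61.9 and 1.51 CPM in KO 1, KO 2 and KO 3. Its log2 fold change of -4.32 ± 0.58 (adjusted p = 0.00798, edgeR, without KO 2) lay beyond that of each of the 9 genes, although the difference from *C3*, at -3.46 ± 0.75, was not tested. *Itgb2*, the beta chain that it shares with *Itgam*, had 44.4, 58.8 and 55.5 CPM in WT and 11.98, 60.1 and 10.4 CPM in KO (-2.22, adjusted p = 0.00798), whereas *Itgam*, named here as its partner, had 51.4, 38.9 and 52.6 CPM in WT and 46.7, 64.1 and 39.3 CPM in KO (-0.13, adjusted p = 0.575). The chains of complement receptor 3 thus had unlike values in KO 1 and KO 3. With KO 2 included, *Itgax* had a log2 fold change of -1.60 (adjusted p = 0.351) and *Itgb2* one of -0.94 (adjusted p = 0.339, edgeR). *Cd93*, once described as a C1q receptor and known from endothelium and myeloid cells, had 34.8, 88.5 and 64.5 CPM in WT and 12.6, 25.1 and 7.63 CPM in KO, so that all 3 KO libraries lay below all 3 WT libraries (-2.61, adjusted p = 0.0108, edgeR, without KO 2). Over all 6 its log2 fold change was -2.05 (adjusted p = 0.184). *Calr*, an endoplasmic reticulum chaperone that also binds C1q, was lower (-1.01, adjusted p = 0.0194, without KO 2), and *Lrp1*, at the other end of the group, had 0.58 (adjusted p = 0.0676).

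**Figure D5:**
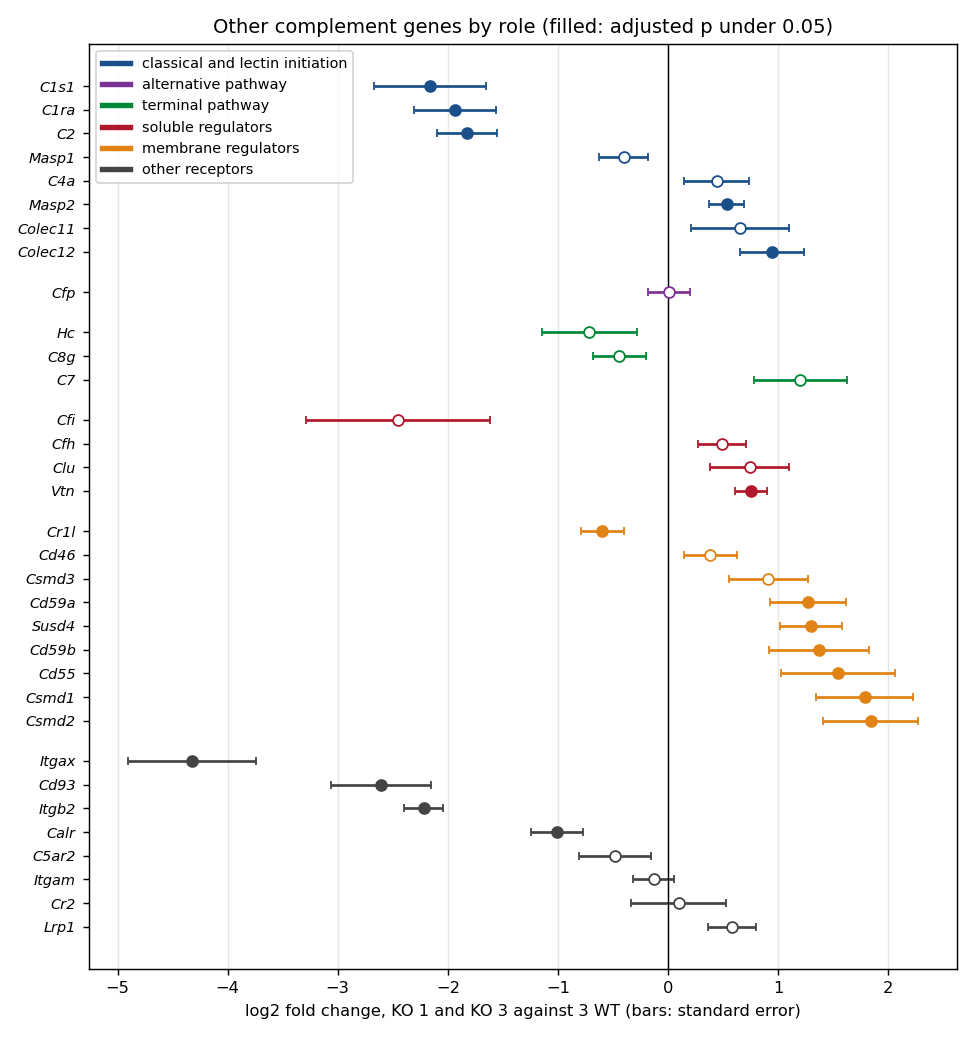
Log2 fold change without KO 2 and its standard error for 33 other complement genes, grouped and colored by role, with filled points for an adjusted p under 0.05. *Itgax* lies farthest to the left at -4.32 and *Csmd2* farthest to the right at 1.84.

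Genes with the most similar profile were listed for each of the 9 as a description, by Pearson's r of log2 CPM over the 6 libraries among 13023 genes with a mean of at least 5 CPM. For the mean of the 3 C1q genes they were *Il21r*, a cytokine receptor chain (r = 0.9998), *Hk3*, a hexokinase of myeloid cells (r = 0.9997), and *Spi1*, which encodes PU.1 (r = 0.9995). *Spi1* had 13.6, 16.9 and 14.6 CPM in WT and 6.19, 19.0 and 5.30 CPM in KO 1, KO 2 and KO 3. KO 1 and KO 3 lay far below the other 4 libraries for C1q, and 1006 genes had r above 0.95 with it.

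For *C3* the closest were *Scarb2*, *Apol6* and *Cst7* (r = 0.9981 to 0.9976), and for *C4b* *Dock8*, *Prph* and *Il12rb1* (r = 0.9942 to 0.9931). *C3* and *C4b* had fewer genes above 0.95 than the rest, 402 and 240. *Cfb* was closest to *Gimap6*, *Tspo* and *Sp100*, with 2337 genes above 0.95. *Serping1* was closest to *C2*, the classical pathway gene described above (r = 0.9975), then *Slc35g1* and *Adcy7*, with 1418 above 0.95. The closest to *C3ar1* were *Gm2a*, *Cttnbp2nl* and *Msr1*, a macrophage scavenger receptor, and to *C5ar1* *Gpnmb*, *Ada* and *Spc25*, with 2435 and 2190 genes above 0.95. All these values share the same 6 libraries and carry no test.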

How the data were processed

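Bulk RNA-seq was made from mG7080 tumors of 3 WT and 3 *Esm1* KO hosts. The 6 columns of read counts per gene were deposited by the authors, next to FPKM and a normalized signal that the authors also computed. The table also holds the authors' fold changes, p-values and 3 per-library log ratios, which were not used, nor was the normalized signal. The labels name the NEBNext Ultra kit and mm10, and the submitters' processing notes name CASAVA 1.8.2 and edgeR, but the study's methods section gives another kit (Ovation Ultralow), HTSeq and a human build. Which of these made the table is not settled by the files, and whether counting used strand is not given in the sources used here. The deposited FPKM equalled the counts divided by gene length and total count within a ratio of 1.01 for 100% of genes. Every gene in the table had a count in at least 4 libraries, so it had been filtered before deposit. Libraries held 17632070 to 22241832 counts, so that genes near 1 CPM rest on few reads and carry wide counting errors.

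The counts were fitted with edgeR 4.0.16 in R 4.3.3 (filterByExpr with a minimum of 10, TMM, quasi-likelihood F test, Benjamini-Hochberg over all genes tested), over all 6 libraries and without KO 2. CPM were computed on TMM-adjusted library sizes, and the factors ran from 0.866 to 1.07. Similar profiles were ranked on log2 CPM with a prior count of 2. Promoters were searched with Python 3.11.15. The alternatives were other scalings and filters, DESeq2 1.42.0, limma 3.58.1 voom, edgeR's exact test, a replicate block and each library left out. On simulated counts with 3 against 3, the edgeR fit recovered 60% of 2-fold and 100% of 8-fold changes, and without KO 2 it recovered 37% and 100%. The simulated counts had the same fixed dispersion for every gene and no library unlike its group. These rates therefore carry over neither to the fit with KO 2 nor to the fit without it.

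Genes named are the 9, *Esm1*, the first 12 of the wider list by p without KO 2, the extremes of each role group and the 3 most similar genes. Others are marked in the text as chosen after their values were seen. The 9 genes, the marker lists and the tests were chosen with earlier results of these data known.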

Additional observations from a re-analysis of the deposited data

How the results depend on the processing

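Over all 6 libraries the count of the 9 genes called was 0 under RLE, upper quartile and plain library size scaling, both filters, the replicate block, DESeq2, edgeR's exact test and limma-voom. It was 9 in WT 1, WT 2, KO 1 and KO 3 alone, and leaving out each library gave 0 to 9, the 9 coming without KO 2 (log2 fold change of *C3* -3.46 and of *C4b* -2.22). DESeq2 gave no adjusted p for *C3*. Leaving out KO 3 turned the log2 fold change of *C3* to 0.00347 and of *C4b* to 0.0282. Of the wider list, where edgeR called 0, 6 were called in those 4 libraries, 5 by DESeq2, 1 by the exact test and 0 to 17 with each library left out.

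Without KO 2 the 9 calls were kept in count under each scaling, filter and tool. Leaving out a further library gave 0 to 9, with 0 without KO 3 and 8 without KO 1, each of which leaves 1 KO library, assumed to vary like the WT libraries. The 17 calls of the wider list became 7 with the replicate block and 0 to 23 with a further library left out. The replicate numbers are shared between groups, and the deviations of same-numbered libraries correlated at 0.549, 0.594 and -0.210. With 3 libraries per group these values cannot settle whether the numbers pair the libraries. With the block, 0 of the 9 were called over all 6 and 8 without KO 2, where *C5ar1* had -1.86 (adjusted p = 0.0559, edgeR). Which genes fell by more than 4-fold without KO 2 also depended on the setting. *Serping1*, at -2.01 in the main fit, was at -1.81 with the block, -1.99 with RLE scaling and -2.29 with library size alone. *C5ar1* passed the limit with library size alone, at -2.15.

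The share of *C1qa* among C1q reads reversed from 0.156 percentage points to -0.362 without WT 2 and -0.498 without KO 2, within a range of -0.498 to 0.763, against 0.450 to 1.08 for *C1qb* and -1.25 to -0.388 for *C1qc*. Scaling by library size alone, without KO 2, moved the median of all genes to -0.29 on the log2 scale and the lower share of calls from 53.6% to 70.4%, and the 9 remained lower. The cause of each change was not tested. Depth limits genes with few reads, such as *C5ar1* with 16 in KO 3.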
